A study of Mus musculus with 24 samples.

Results

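*Hfe* encodes an HLA class I-like membrane protein that hepatocytes express, and its loss is the genetic lesion behind the commonest form of hereditary hemochromatosis. The livers of 3 *Hfe*-/- and 3 wild-type mice of the C57BL/6 strain (B6) were compared on 6 of the 24 Affymetrix Mouse Genome 430 2.0 arrays of a study that also profiled the duodenum and the DBA/2 strain (D2). The 6 arrays were those whose titles name liver and B6, 1 array per mouse, and every probe set on them that passed a filter on low signals entered the comparison. The question was which hepatic transcripts change when *Hfe* is absent from this background. All 6 mice were male and 7 weeks old, received chow containing 280 mg iron per kg, and went without food for 14 h before death. The 3 mutants carried a constitutive *Hfe* disruption and were bred in the investigators' own facility, whereas the 3 wild-type controls, which have both copies of *Hfe*, were bought from a breeder and then housed there, so that origin and genotype cannot be told apart.

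In the liver, *Hfe* takes part with transferrin receptor 2, hemojuvelin and bone morphogenetic protein receptors in sensing circulating iron and in setting the output of hepcidin, the peptide hormone that closes the iron exporter ferroportin. When this control is weak, ferroportin stays active in the gut and in macrophages, and iron accumulates in hepatocytes. Excess iron catalyses the formation of reactive oxygen species, which cells meet through the transcription factor NRF2, its antioxidant response elements, glutathione and a set of conjugating enzymes.

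Values are given as linear MAS5 signals, which the authors scaled to a common level and which had a median of 16.9 to 19.8 over the probe sets of each of the 6 arrays. Fold changes are given on the log2 scale, *Hfe*-/- against wild-type, with the standard error (SE) and the Benjamini-Hochberg adjusted p of a limma fit over the 12 liver arrays, and a gene is said to have risen or fallen where that p was at most 0.1. Each gene is represented by its brightest kept probe set. The array number limits the precision: the median SE over the 12999 genes measured was 0.21. The 3 wild-type arrays and *Hfe*-/- replicate 1 were hybridized in 1 run, and *Hfe*-/- replicates 2 and 3 in 2 later runs, so values from inside the shared run are given where they matter. Wild-type replicate 3 was processed with another fluidics protocol than every other liver array. A fit without this array called 208 probe sets in place of 284. That fit also leaves out 1 mouse, so the part of the protocol alone was not tested. On each *Hfe*-/- array the log2 ratio of the 3' to the 5' probe set of *Gapdh*, a measure of RNA integrity and labeling, lay below that of each wild-type array (-0.43 to -0.35 against -0.30 to -0.23), and its part in the results was not tested. The corresponding ratio for *Actb* was 0.95 to 1.06 on the *Hfe*-/- arrays and 0.985 to 0.996 on the wild-type arrays.

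*Hfe* itself gave signals of 674, 685 and 691 in the 3 wild-type livers and 89.2, 86.2 and 98.8 in the 3 *Hfe*-/- livers. Every mutant array was far below every wild-type array, with a log2 fold change of -2.91 (SE 0.11, adjusted p = 1.73e-09). A second, dimmer *Hfe* probe set read 58.0 on average in wild-type and 14.4 in *Hfe*-/- livers, without overlap but short of the threshold (log2 fold change -1.98, adjusted p = 0.271). The hepatocyte markers gave high signals on all 6 arrays: those of 12 measured markers, albumin and transthyretin among them, summed to between 113900 and 129150 on the wild-type arrays and between 95108 and 132350 on the *Hfe*-/- arrays, and none of the 12 rose or fell on the probe set that stands for its gene, the brightest in liver. A dimmer probe set of *Hnf4a*, a transcription factor of hepatocytes, rose (log2 fold change 0.59, adjusted p = 0.0803).

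Apart from *Hfe*, the called genes of B6 liver included rises of glutathione-synthesizing and conjugating enzymes, ferroportin and a mitochondrial iron importer, and falls of apolipoprotein A-IV, the noncoding RNA *Neat1*, the linker histone *H1f2* and scattered metabolic and interferon-related genes. Of all kept probe sets, 284 were called (1.01%), 151 of them higher and 133 lower in *Hfe*-/- livers. At gene level, 82 genes rose (0.631% of those measured) and 64 fell (0.492%). The rises were mostly moderate, with a median of 0.66, and 14 of them exceeded 2-fold. The falls had a median of -0.60, and 9 exceeded 2-fold. Over all genes the median was -0.002. Each of the 146 genes had all 3 *Hfe*-/- arrays on 1 side of all 3 wild-type arrays, a pattern that 9.02% of all measured genes showed in the upward and 9.26% in the downward direction. A further 60 genes had a call only on probe sets dimmer than the one that stands for the gene and are not counted, among them 5 list members, *Entpd5*, *Hnf4a*, *Malat1*, *Per2* and *Trib3*. *Sugct* was also among the 60, with a fall from a mean of 122 to 11.7 (log2 fold change -3.38, adjusted p = 0.000951). The same probe set was at -5.38 in D2 liver and -1.05 in B6 duodenum, and the counts by distance from *Hfe* given below do not include its call. The number of calls depended on single arrays and on the model. It was 56 probe sets without wild-type replicate 2, 130 without *Hfe*-/- replicate 1 and 173 without wild-type replicate 1, and 99 with the hybridization run as a block. Of the 146 gene calls, 29 remained without wild-type replicate 2, 49 without *Hfe*-/- replicate 1 and 38 with the run as a block. With run and fluidics station as a block 27 remained, and 13 when the mean-variance trend was left out of the fit. When every kept probe set was averaged into 1 value per gene, 85 remained, and 4 changed sign. *Hfe*, *Gsta2*, *Gsta4*, *Aox1*, *9130409I23Rik*, *Slc35g1*, *Apoa4* and *Junb* stayed called under every alternative that gave a test. Any other call given below without a count of lost settings is not thereby firmer.

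**Figure D1:**
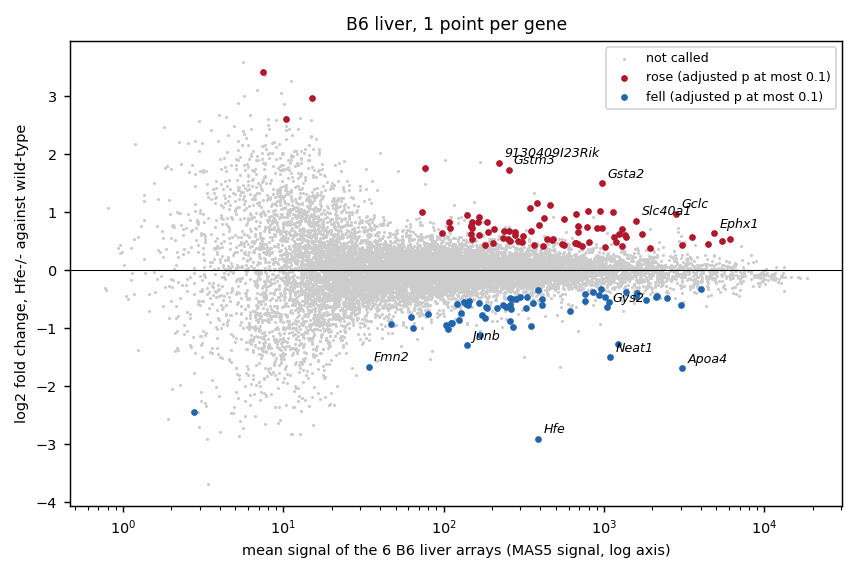
Log2 fold change of each of the 12999 genes in B6 liver (y axis) against its mean MAS5 signal over the 6 arrays (x axis, log scale), with the 82 genes that rose in red and the 64 that fell in blue. The scatter of uncalled genes (gray) widens steeply at low signals, and most called genes lie at signals of about 100 or more, with *Hfe*, *Apoa4* and *Neat1* lowest among the brighter genes.

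Both subunits of the first enzyme of glutathione synthesis rose, as did *Ugdh*, *Me1*, *Tkt*, *Ephx1* and *Aox1*. These were the 7 that rose of 23 measured NRF2 targets and glutathione genes (30.4%, against 0.631% of all genes), while none fell and 22 lay above 0 on the log2 scale, the median of the list being 0.35. Over all measured genes 49.7% lay above 0. This list, like the others, was chosen with earlier results of these data known, so its counts are a description and not a test. All 3 *Hfe*-/- arrays lay above all 3 wild-type arrays for 14 of the 23 (60.9%, against 9.02% of all genes). The median of the list was 0.44 inside the shared run and ranged from 0.27 to 0.44 over the alternatives.

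*Gclc*, the catalytic subunit of glutamate-cysteine ligase, which carries out the rate-limiting step of glutathione synthesis, gave signals of 2150.0, 1874 and 1606 in wild-type and 4432, 3113 and 3576 in *Hfe*-/- livers. The groups did not overlap (log2 fold change 0.98, SE 0.13, adjusted p = 0.00386), and both *Gclc* probe sets rose. Its modifier subunit *Gclm* read 959, 872 and 937 against 1428, 1265 and 1409.6, again without overlap (log2 fold change 0.57, adjusted p = 0.0129). *Ugdh*, which makes the UDP-glucuronic acid used in glucuronidation, read 806, 707 and 749 in wild-type and 1382, 1399 and 1809 in *Hfe*-/- livers. The group means were 754 and 1530, with no overlap (log2 fold change 1.01, SE 0.14, adjusted p = 0.00386). The rises of *Gclc* and *Ugdh* were lost only when the mean-variance trend was left out of the fit, and that of *Gclm* was also lost without wild-type replicate 2.

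The NADPH-producing malic enzyme *Me1* read 739.6, 718 and 695 against 1699.7, 863 and 1144, with the first mutant far above the others. Transketolase (*Tkt*), a pentose phosphate enzyme, read 1104, 1178 and 1009.7 against 1876, 1597 and 1464. Both passed the threshold, at log2 fold changes of 0.73 (adjusted p = 0.0921) and 0.58 (adjusted p = 0.0601), and neither call survived the removal of any 1 of the 3 wild-type arrays. *Pgd*, another NADPH-producing enzyme of the list, was not called (0.09, adjusted p = 0.864), and for the nucleotidase *Entpd5* 1 of 5 probe sets rose (0.54, adjusted p = 0.0949) but not the brightest (0.37, adjusted p = 0.148). The microsomal epoxide hydrolase *Ephx1* rose, from 3977, 4005 and 3389.7 in wild-type to 6325, 5419 and 5957 in *Hfe*-/- livers (log2 fold change 0.64, adjusted p = 0.00734). Several members that did not pass the threshold also had groups that did not overlap, such as the heme oxygenase *Hmox1* (log2 fold change 0.65), sulfiredoxin *Srxn1* (0.53), glutathione synthetase *Gss* (0.35) and thioredoxin reductase *Txnrd1* (0.24). *Nqo1*, the quinone reductase often used as an index of NRF2 activity, read 39.8, 58.7 and 46.2 against 64.8, 65.5 and 51.6, with overlapping groups (log2 fold change 0.34, adjusted p = 0.694). Outside this list, *Pir*, an iron-binding nuclear protein, rose from 176, 192 and 219.8 to 287, 363 and 287 (log2 fold change 0.67, adjusted p = 0.0745).

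The promoters of risen genes with a match to the core of the antioxidant response element, the letters TGACNNNGC read on either strand, are shown because this element is the sequence through which NRF2 acts. Of 27025 genes with a RefSeq promoter (GRCm38.p6, 250 bases before to 50 after an annotated start), 14% held a match in any of their promoters, and of the 10477 among them measured here 16.8% did. Of the 82 genes that rose, 70 had a promoter in the table and 15 of these held a match (21.4%), against 8 of 51 (15.7%) for the genes that fell. In the NRF2 and glutathione list the core was in 9 of 19 promoters (47.4%), among them 3 of the 6 that belong to risen members, *Gclm*, *Me1* and *Ugdh*. In the glutathione S-transferase list it was in 4 of 18 (22.2%). The promoter of *Gclm* is chr3:122245307-122245606 on the plus strand, that of *Me1* is chr9:86695865-86696164 on the minus strand, that of *Ugdh* is chr5:65435793-65436092 on the minus strand and that of *Gsta3*, a risen transferase, is chr1:21240335-21240634 on the plus strand. They are printed 5′ to 3′ on the strand of the gene, with the matched core in capitals:
Gclm: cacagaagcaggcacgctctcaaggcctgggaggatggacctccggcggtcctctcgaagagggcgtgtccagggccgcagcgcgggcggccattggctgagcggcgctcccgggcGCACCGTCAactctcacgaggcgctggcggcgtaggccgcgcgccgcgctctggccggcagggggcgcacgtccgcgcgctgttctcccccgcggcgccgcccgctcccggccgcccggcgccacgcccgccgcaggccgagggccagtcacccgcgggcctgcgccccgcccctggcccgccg
Me1: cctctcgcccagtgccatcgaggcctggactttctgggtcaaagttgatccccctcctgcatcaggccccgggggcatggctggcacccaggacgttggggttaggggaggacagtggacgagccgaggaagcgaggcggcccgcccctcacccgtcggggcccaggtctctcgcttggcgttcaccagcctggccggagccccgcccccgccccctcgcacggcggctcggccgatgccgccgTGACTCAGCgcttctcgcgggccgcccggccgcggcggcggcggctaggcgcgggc
Ugdh: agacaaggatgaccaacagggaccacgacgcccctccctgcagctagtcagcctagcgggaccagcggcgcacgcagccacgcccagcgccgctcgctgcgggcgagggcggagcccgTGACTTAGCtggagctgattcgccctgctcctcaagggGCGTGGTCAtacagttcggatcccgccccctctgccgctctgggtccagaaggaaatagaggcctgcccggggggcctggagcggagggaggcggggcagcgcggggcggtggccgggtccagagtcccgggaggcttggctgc
Gsta3: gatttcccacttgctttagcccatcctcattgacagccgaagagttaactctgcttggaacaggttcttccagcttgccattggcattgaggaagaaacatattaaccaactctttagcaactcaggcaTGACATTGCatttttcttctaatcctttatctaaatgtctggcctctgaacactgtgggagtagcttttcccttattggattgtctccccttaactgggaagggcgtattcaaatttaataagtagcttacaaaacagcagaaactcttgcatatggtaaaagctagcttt
The *Ugdh* promoter held 2 matches and each of the others 1. In *Me1* the match starts 6 bases before the annotated start, and in *Gclm*, *Gsta3* and *Ugdh* between 134 and 94 bases before it. A match is a run of letters and no measure of binding. The promoters of the risen *Aox1*, *Ephx1* and *Tkt* held none of these letters.

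Glutathione S-transferases join glutathione to electrophiles, lipid peroxidation products among them. Of 20 measured members, 6 rose (30%, against 0.631% of all genes), none fell and 16 lay above 0 on the log2 scale, the median being 0.31. The risen members belonged to the alpha class (*Gsta2*, *Gsta3*, *Gsta4*) and the mu class (*Gstm1*, *Gstm3*, *Gstm6*). Inside the shared run the median of the list was 0.21, and over the alternatives it lay between 0.21 and 0.43.

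*Gsta2* read 513, 593 and 418 in wild-type and 1135, 1547 and 1652 in *Hfe*-/- livers. Its lowest mutant signal was far above its highest wild-type signal (log2 fold change 1.5, SE 0.15, adjusted p = 0.000616). *Gstm3* went from 154, 98.1 and 98.5 to 269, 428 and 473, and both of its probe sets rose (log2 fold change 1.73, SE 0.21, adjusted p = 0.00104). A probe set annotated with several alpha-class genes, and so counted for none of them, rose from a mean of 368 to 1371 (log2 fold change 1.88, adjusted p = 0.000121). *Gsta4*, which prefers the lipid peroxidation product 4-hydroxynonenal, read 415, 535 and 413 against 963, 839 and 846 (log2 fold change 0.97, SE 0.11, adjusted p = 0.000951). In all 3 genes the groups were well apart, and *Hfe*-/- replicate 1 was the lowest mutant array for *Gsta2* and *Gstm3*. *Gstm1* rose by 0.54 (adjusted p = 0.0169), and all 4 of its probe sets rose. *Gstm6* (0.53) and *Gsta3* (0.46) changed less and lost their calls under many alternatives, among them the removal of wild-type replicate 2. *Gstm2* (0.42) and *Gstm4* (0.41) had groups that did not overlap but did not pass the threshold, and the theta-class gene *Gstt2* lay lower in all 3 mutants (-0.31, not called). Members of the mu class are close in sequence and probe sets may not separate them fully.

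**Figure D2:**
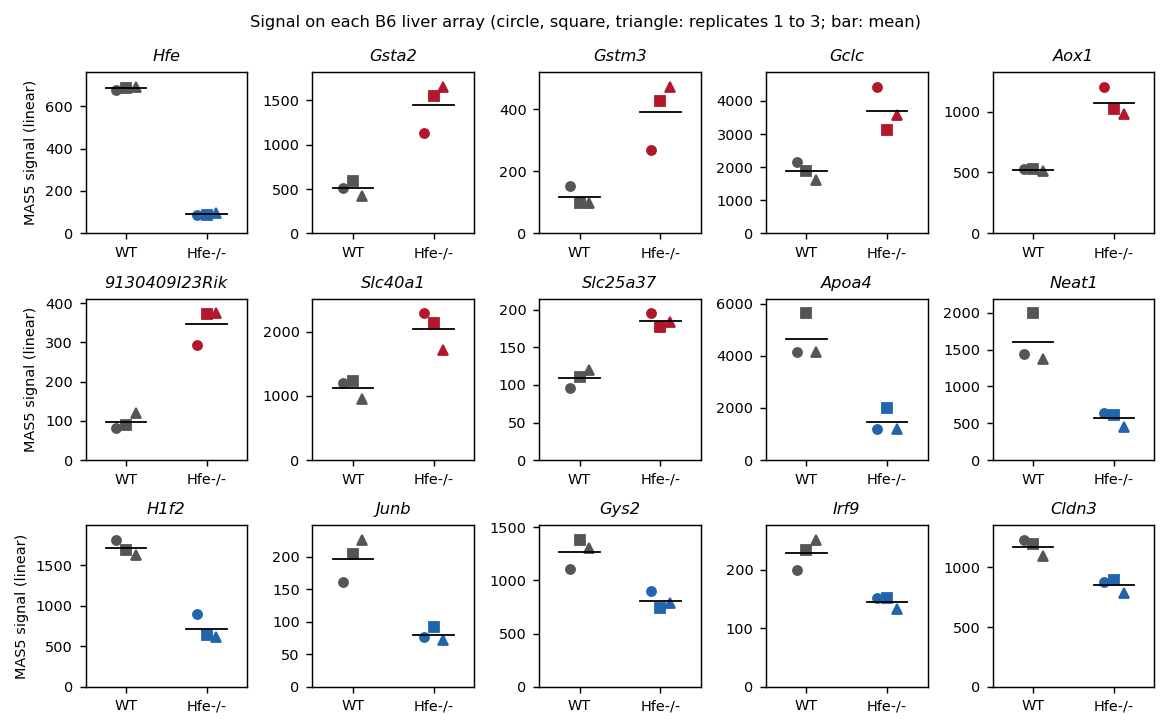
MAS5 signal (y axis, linear) of 15 called genes on each of the 3 wild-type and 3 *Hfe*-/- B6 liver arrays, with circles, squares and triangles for replicates 1 to 3 and a bar at the mean of each group. The groups are separate in every panel, from the 7.5-fold lower *Hfe* signal to the moderate difference of *Cldn3*.

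Other enzymes of foreign-compound metabolism rose singly rather than by family. Aldehyde oxidase *Aox1*, which also counts among the NRF2 targets, read 527, 531 and 512 against 1204, 1017 and 983, with little spread inside either group (log2 fold change 1.02, SE 0.12, adjusted p = 0.000957). Of 30 measured cytochromes P450 of families 1 to 3, 2 rose (6.67%, against 0.631% of all genes) and none fell, with a median of -0.03. These were *Cyp2c55*, at 29.7, 29.0 and 40.2 in wild-type and 80.4, 90.1 and 187 in *Hfe*-/- livers (log2 fold change 1.76, SE 0.31, adjusted p = 0.0228), and *Cyp2c29*, at 0.50 (adjusted p = 0.0803). For *Cyp2c55* the wild-type signals were low and the 3 mutant signals uneven, and its call was lost without wild-type replicate 2 and with the hybridization run as a block. Of 10 UDP-glucuronosyltransferases only *Ugt2b35* rose (0.58, adjusted p = 0.0499), which is 10% against 0.631% of all genes, with a list median of 0.05. The aldo-keto reductases *Akr1c14* (0.63) and *Akr1c19* (0.71) rose, as did *Keg1* (0.75) and the organic anion carrier *Slc22a30* (0.66). Of 25 settings, 9 lost the call of *Keg1*, 9 that of *Slc22a30*, 4 that of *Akr1c14* and 2 that of *Akr1c19*. The largest rise among genes with a mean signal of at least 100 was that of *9130409I23Rik*, an uncharacterized gene, from 80.7, 88.5 and 120.2 to 293, 372 and 374 (log2 fold change 1.86, SE 0.19, adjusted p = 0.000699). None of the 18 genes listed for direct removal of oxidants, superoxide dismutases, catalase, peroxidases and metallothioneins among them, rose or fell, and their median was 0.02.

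Few genes of iron handling were called, with ferroportin and mitoferrin 1 among them. Of 17 measured genes of iron uptake, storage and export, 1 rose (5.88%, against 0.631% of all genes) and none fell, with a median of -0.04. *Slc40a1*, which encodes ferroportin, read 1199, 1238 and 959 in wild-type and 2289, 2136 and 1719.5 in *Hfe*-/- livers. The lowest mutant array was above the highest wild-type array (log2 fold change 0.85, SE 0.12, adjusted p = 0.00606), and both of its probe sets rose. Macrophages as well as hepatocytes express this gene, and the part of each cell type in its rise was not tested. The transferrin receptor *Tfrc*, whose mRNA is stabilized when cells lack iron, read 209, 274 and 146 in wild-type and 91.3, 156 and 82.2 in *Hfe*-/- livers. The 2 groups overlapped (log2 fold change -0.95, adjusted p = 0.129). The ferritin heavy chain *Fth1* differed by -0.05 and transferrin receptor 2 (*Tfr2*) by 0.02, neither called. Of the 3 kept probe sets annotated with the ferritin light chain together with other genes, the dimmest, which is assigned to microRNAs as well, rose from a mean of 138 to 256 (log2 fold change 0.88, adjusted p = 0.0471). The 2 bright ones were not called, at 0.28 (adjusted p = 0.37) and 0.35 (adjusted p = 0.26).

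No member of the hepcidin list rose or fell, out of 21 measured. *Hamp*, the hepcidin gene, read 10256, 9690.0 and 9801 in wild-type and 10698, 7939.9 and 10258 in *Hfe*-/- livers, with overlapping groups (log2 fold change -0.05, SE 0.18, adjusted p = 0.946). Its paralog *Hamp2* read 3307, 2393 and 2143 against 2994, 4276 and 3674, also overlapping (log2 fold change 0.49, SE 0.19, adjusted p = 0.325). The 2 genes are near-identical copies and their probe sets may share signal. Among the upstream genes, *Bmp6* had a log2 fold change of 0.34, the SMAD target *Id3* 0.55, *Smad7* 0.43 and hemojuvelin (*Hjv*) -0.24. None of these 4 was called, although the groups of *Id3* and of *Hjv* did not overlap.

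Heme and mitochondrial iron genes moved singly. *Blvrb*, a biliverdin reductase, rose among 12 measured genes of heme synthesis and breakdown (0.49, adjusted p = 0.0803), where the median was 0.19. It was the only gene of the list called (8.33% rose, against 0.631% of all genes), and its call was lost in 13 of 25 settings. The heme-synthesis enzyme *Alas1* (0.59) and the heme-degrading *Hmox1* (0.65) were higher on all 3 mutant arrays without being called. *Slc25a37*, mitoferrin 1, which carries iron into mitochondria, read 96.3, 110.4 and 119 against 195, 176 and 183. Its groups were narrow and apart (log2 fold change 0.77, SE 0.15, adjusted p = 0.037), and its call was lost without wild-type replicate 1 or 2 or *Hfe*-/- replicate 1. *Abcb8*, a mitochondrial transporter linked to iron export, fell from 230.1, 204 and 231 to 145, 142 and 142 (log2 fold change -0.63, adjusted p = 0.0507), a call that did not survive the removal of any 1 of the 6 arrays. The heme transporter *Slc48a1* rose (0.67, adjusted p = 0.0444), a call lost in 8 of 25 settings. The 4 measured erythroid markers, *Slc4a1* and *Alas2* among them, were all positive with a median of 0.47, and their summed signal was 1088 to 1167 on the *Hfe*-/- and 741 to 1006 on the wild-type arrays. Their part in the heme and iron results was not tested. Carriers of other metals were also among the called genes: the zinc exporter *Slc30a1* rose (0.44), the manganese exporter *Slc30a10* rose (0.61) and *Cox17*, the copper chaperone of cytochrome oxidase, fell (-0.42). The call of *Slc30a1* was lost in 15 of 25 settings and those of *Slc30a10* and *Cox17* in 13 each.

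**Figure D3:**
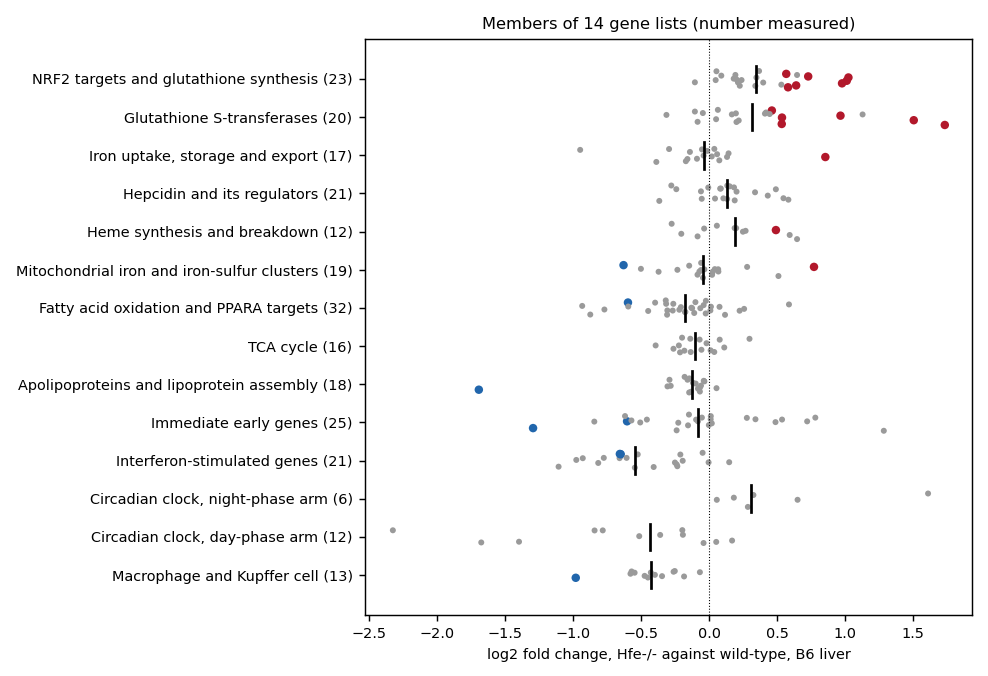
Log2 fold change in B6 liver (x axis) of each measured member of 14 gene lists (rows, number measured in parentheses), with genes that rose in red, genes that fell in blue, uncalled genes in gray and a black bar at the median of each list. The NRF2 and glutathione S-transferase rows lie mostly right of 0 with medians of 0.35 and 0.31, the interferon and macrophage rows lie left of 0 with medians of -0.54 and -0.43, and most other rows straddle 0.

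*Apoa4*, which encodes an apolipoprotein of triglyceride-rich particles, fell. It read 4148, 5629.8 and 4140.2 in wild-type and 1197, 1983 and 1211 in *Hfe*-/- livers. The group means were 4639 and 1464, and the groups did not overlap (log2 fold change -1.69, SE 0.20, adjusted p = 0.000951), and both probe sets fell. Of the other 17 measured genes of lipoprotein assembly none was called. In the whole list 5.56% fell, against 0.492% of all genes, and the median was -0.13. Of 32 measured genes of fatty acid oxidation 1 fell (3.12%, against 0.492% of all genes) and none rose. Among the 32, 25 had a negative log2 fold change, and the median was -0.18. The gene that fell was *Hsd17b10*, a mitochondrial dehydrogenase of branched-chain amino acid and fatty acid breakdown, at -0.60 with both probe sets called (adjusted p = 0.0702). For 11 of the 32 (34.4%, against 9.26% of all genes) all mutant arrays were below all wild-type arrays, among them *Hadhb* (-0.40), *Acadm* (-0.31) and *Cpt1a* (-0.31), and inside the shared run the median of the list was -0.09. *Acaa1a*, a peroxisomal thiolase, fell outside this list (-0.63, adjusted p = 0.0716), but its second probe set did not (-0.09, with overlapping groups), and the call was lost in 11 of 25 settings, the removal of any 1 wild-type array and the mean of both probe sets among them. Of 16 TCA cycle genes none was called (median -0.10).

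Genes of glycogen and pyruvate metabolism changed in both directions. *Gys2*, the liver glycogen synthase, read 1111, 1380.2 and 1302 against 897, 744 and 787, without overlap (log2 fold change -0.64, SE 0.10, adjusted p = 0.00894). *Ppp1r3b*, which targets protein phosphatase 1 to glycogen and activates the synthase, read 437, 357 and 389.5 against 624, 769 and 807, the opposite direction (log2 fold change 0.89, SE 0.18, adjusted p = 0.0493). Pyruvate carboxylase *Pcx* fell (-0.40, adjusted p = 0.0499). It was the only called gene of 16 in gluconeogenesis and the fasting response (6.25% fell, against 0.492% of all genes). The call of *Gys2* was lost with the hybridization run as a block, that of *Ppp1r3b* also without wild-type replicate 2 or 3 or *Hfe*-/- replicate 2 or 3, and that of *Pcx* without any 1 of 5 B6 arrays. In lipid synthesis, *Me1* was the only called gene of 19 for fatty acids and triglycerides (median 0.12). *Hmgcs1*, which makes the HMG-CoA of sterol synthesis, was the only one of 19 for cholesterol (0.60, adjusted p = 0.0803). In each of these lists 5.26% rose, against 0.631% of all genes. The call of *Hmgcs1* was lost in 12 of 25 settings. Of 16 genes of bile acid synthesis none was called, and the rate-limiting *Cyp7a1* differed by -0.18 (adjusted p = 0.825).

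Of 7 nuclear noncoding RNAs 1 fell (14.3%), and of 25 immediate early genes 2 fell (8%), against 0.492% of all genes. *Neat1*, the noncoding RNA on which nuclear paraspeckles are built, read 1441, 1992 and 1373 in wild-type and 644, 615 and 443 in *Hfe*-/- livers. The mutants were well below (log2 fold change -1.5, SE 0.16, adjusted p = 0.000766). A second, far dimmer *Neat1* probe set pointed the other way without being called (1.62, adjusted p = 0.253), so that the result is that of 1 probe set, and the mean of both was 0.06. *Junb*, one of the JUN proteins of AP-1, read 162, 204 and 226 against 76.7, 91.2 and 72.5 (log2 fold change -1.29, SE 0.15, adjusted p = 0.000951). Its groups did not overlap. *Ier2* fell too (-0.60, adjusted p = 0.0936), but *Fos* (-0.51), *Egr1* (0.01) and *Jun* (0.49) were not. In no list, *Nab2*, a corepressor of EGR proteins (-1.02), and the zinc-finger repressor *Snai2* (-1.11) also fell, and the call of each was lost without *Hfe*-/- replicate 1 and without wild-type replicate 3. The noncoding RNA *Malat1* was not called on the brightest of its 7 probe sets (-0.43, adjusted p = 0.214), where the groups did not overlap. A dimmer one fell from a mean of 90.8 to 37.6 (log2 fold change -1.26, adjusted p = 0.0188), and the other 5 were not called.

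*H1f2*, a replication-dependent linker histone, is the next protein-coding gene after *Hfe* in the RefSeq gene order of chromosome 13, with its start 37 kb away, and it fell in the mutants. It read 1810.4, 1685 and 1629 in wild-type and 901, 635 and 615 in *Hfe*-/- livers. The highest mutant signal was far below the lowest wild-type signal (log2 fold change -1.27, SE 0.17, adjusted p = 0.0037), and 2 of its 3 probe sets fell. In the duodenum of the same strain its log2 fold change was -0.61, and in D2 liver -0.46 (adjusted p = 0.245). Of 143 measured genes within 20 Mb of *Hfe*, 6 were called (4.2%), against 0.882% of 340 genes on the rest of that chromosome and 1.09% of 12470 on the others. The 6 were *Hfe*, *H1f2* and *Stard3nl*, which fell, and *Tubb2a*, *Akr1c19* and *Akr1c14*, which rose. The count thus includes the disrupted gene itself. It also includes *Akr1c19* and *Akr1c14* at 19.5 and 19.7 Mb, close to the edge of the window. These counts leave out dimmer probe sets and those without a single gene symbol. One of the latter, which the study placed on chromosome 13, fell (-1.51, adjusted p = 0.00386), with -1.42 in D2 liver and -1.48 in B6 duodenum. Another, which the study assigned to a histone gene of that chromosome, fell by less (-0.39, adjusted p = 0.05) and was at 0.41 in D2 liver. Sequence next to a targeted gene can stay that of the embryonic stem cell donor strain after backcrossing, and its part here was not tested.

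Interferon-stimulated genes had mostly negative log2 fold changes, of which few passed the threshold. Of 21 measured, 2 fell (9.52%, against 0.492% of all genes), none rose and 20 had a negative log2 fold change, with a median of -0.54. All mutant arrays were below all wild-type arrays for 10 of the 21 (47.6%), against 9.26% of all measured genes. *Ifih1*, the RNA sensor MDA5, read 364, 419 and 415 against 243, 252 and 264 (log2 fold change -0.65, SE 0.14, adjusted p = 0.0507). *Irf9*, the DNA-binding subunit of the interferon-activated complex ISGF3, read 198, 233 and 250.6 against 151, 151 and 132 (log2 fold change -0.65, SE 0.15, adjusted p = 0.0799). Both pairs of groups were apart, and both calls were lost without wild-type replicate 2. *Ifit1* (-0.97), *Ifit3* (-0.93) and *Usp18* (-1.10) had groups that did not overlap but were not called. By array, the median member of the list differed from the wild-type mean by -0.51, -0.27 and -0.78 in the 3 *Hfe*-/- livers and by -0.20, 0.13 and 0.09 in the 3 wild-type livers. Outside the list, *Samd9l* (-0.94) and *Trim14* (-0.88), both interferon-inducible, fell as well. The tumor necrosis factor receptor *Tnfrsf1a* fell by 0.45 on the log2 scale, and of 22 acute phase genes none was called.

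Macrophage markers had negative log2 fold changes too. Of 13 measured, 1 fell (7.69%, against 0.492% of all genes) and all had a negative log2 fold change, with a median of -0.43. The lysozyme gene *Lyz2* read 320.0, 410.0 and 329 in wild-type and 259.9, 120.5 and 179.9 in *Hfe*-/- livers (log2 fold change -0.98, SE 0.21, adjusted p = 0.0653). Its call was lost in 10 of 25 settings, the hybridization run as a block among them. The Kupffer cell lectin *Clec4f* had overlapping groups at -0.47. The list separated the mutants from each other: its median was -0.02 in *Hfe*-/- replicate 1, hybridized with the wild-type arrays, and -0.77 and -0.53 in replicates 2 and 3, which were hybridized later. The summed signal of the 13 markers overlapped, at 4834 to 6450 in wild-type and 3187 to 5275 in *Hfe*-/- livers. In whole liver, fewer cells of a type and less RNA per cell cannot be told apart, and the part of these markers or of the hybridization run in the other results was not tested. Of 13 stellate cell and fibroblast markers, only *Dcn*, a collagen-binding proteoglycan, fell (-0.45, adjusted p = 0.0934), which is 7.69% against 0.492% of all genes. The list median was -0.22. Outside the list the growth factor receptor *Pdgfra* fell from low signals (-0.81). Both calls were lost when any of several arrays was left out, wild-type replicate 2 included. Other falls, in no list, were those of the tight-junction gene *Cldn3*, with all 4 probe sets called (-0.46, adjusted p = 0.0665), the keratin *Krt18* (-0.50), the receptor *Erbb3* (-0.55) and the Hedgehog receptor *Ptch1* (-0.49). Of 25 settings, 12 lost the call of *Krt18*, 10 that of *Cldn3*, 6 that of *Ptch1* and 5 that of *Erbb3*. For *Ptch1* the mean of its 3 probe sets also had the opposite sign (0.18).

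**Figure D4:**
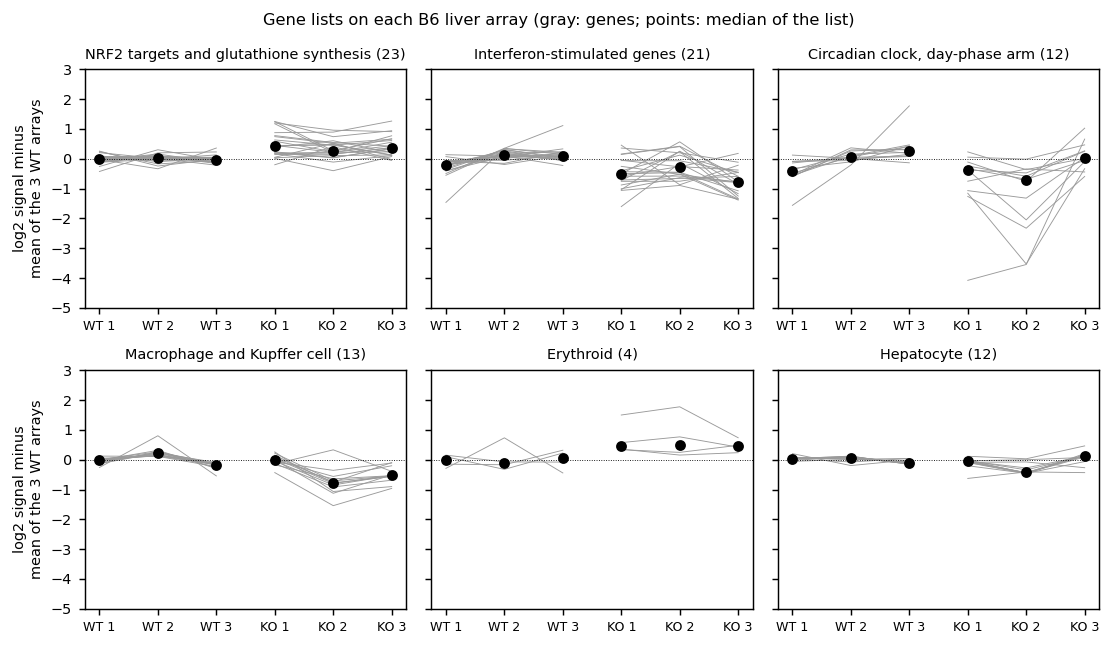
Log2 signal minus the mean of the 3 wild-type arrays (y axis) on each of the 6 B6 liver arrays (x axis) for 6 gene lists, with 1 gray line per gene and a black point at the list's median; the lines only link values of 1 gene, since replicates have no order. The NRF2 medians of the 3 mutants (0.44, 0.27 and 0.37) lie above those of the 3 wild-type livers, whereas the macrophage median is -0.02 in *Hfe*-/- replicate 1 and -0.77 and -0.53 in the other mutants.

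Of the circadian clock genes none was called on the probe set that stands for it. The second probe set of *Per2*, a repressor of the clock, fell from a mean of 40.1 to 12.6, with separate groups (log2 fold change -1.68, SE 0.39, adjusted p = 0.0803), while the first gave -0.78 (adjusted p = 0.479). The 12 measured genes of the day-phase arm, the Per genes, the REV-ERB receptors and the PAR transcription factors among them, had a median of -0.44, with 10 of 12 negative, and the 6 genes of the night-phase arm had a median of 0.31, with 6 of 6 positive. *Per3* read 79.2, 149 and 131 in wild-type and 48.2, 23.001 and 76.6 in *Hfe*-/- livers, which did not overlap (log2 fold change -1.40, adjusted p = 0.104). *Dbp*, an output regulator with one of the widest daily swings in liver, read 511, 745 and 957 against 320.5, 61.9 and 567. The third mutant lay within the wild-type range and the first and second below it (log2 fold change -1.67, SE 0.57, adjusted p = 0.257). *Npas2*, of the night-phase arm, read 20.5, 0.56 and 12.7 against 10.4, 36.5 and 10.9 (log2 fold change 1.61, adjusted p = 0.636), again with overlapping groups. By array, the median of the day-phase list was -0.38, -0.72 and 0.03 in the 3 mutants and -0.43, 0.05 and 0.26 in the 3 wild-type livers. The time of death of each mouse is not given in the sources used here.

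Some of the larger changes belonged to no list. *Slc35g1*, a transporter-like membrane protein, read 255, 208 and 241 in wild-type and 573, 500.5 and 502 in *Hfe*-/- livers (log2 fold change 1.16, SE 0.14, adjusted p = 0.00125). *Zkscan1*, a zinc-finger gene, read 457, 478 and 445 against 229.7, 226 and 253 (log2 fold change -0.96, SE 0.11, adjusted p = 0.000951). Both pairs of groups were far apart, although only 2 of the 6 *Zkscan1* probe sets fell. The tubulins *Tubb2a* (1.12), *Tubb4b* (0.90) and *Tuba4a* (0.43) rose, and so did the lysosomal nuclease *Dnase2a* (1.02), *9130016M20Rik* (1.08), *Bcl7c* (0.95), *Shld2* (0.91) and *Ikbkg* (0.77), the regulatory subunit of the kinase that activates NF-kappaB. Of 25 settings, 16 lost the call of *Dnase2a*, 15 that of *9130016M20Rik*, 12 that of *Tubb2a* and 11 that of *Tuba4a*. The call of *Tubb4b* was lost in 4, those of *Bcl7c* and *Shld2* in 2 each and that of *Ikbkg* in 1. *Atf4*, the transcription factor of the integrated stress response, rose (0.55, adjusted p = 0.0427). It was the only called gene of 21 for stress of the endoplasmic reticulum (4.76%, against 0.631% of all genes), a list with a median of 0.03. The dimmer of both probe sets of *Trib3*, a pseudokinase induced by ATF4, fell (-1.06, adjusted p = 0.0803), and the brighter was not called (-0.74, adjusted p = 0.151). The arrestin-related *Arrdc4* (-0.86), *Tmem250-ps* (-0.91), *Stard3nl* (-0.91), *Ppp1r9a* (-0.82) and the lysine-breakdown enzyme *Dhtkd1* (-0.60) fell. The call of *Tmem250-ps* was lost in 16 of 25 settings, those of *Stard3nl* and *Ppp1r9a* in 8 each and those of *Arrdc4* and *Dhtkd1* in 5 each. Large log2 fold changes also came from near-background probe sets, *Kbtbd8* (3.43), *Dpy19l3* (2.97) and *E230016M11Rik* (2.61) upward and *Corin* (-2.44) downward, with group means between 0.731 and 25.6, and their size is poorly determined.

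The remaining lists held no called gene. They covered heat shock (10 measured, median -0.08), growth hormone dependent and sex-biased genes (23, median -0.03), the cell cycle (23, median 0.00), HIF targets (17, median 0.14) and 4 genes known to differ between C57BL/6 substrains (median -0.04). The marker lists without a call were those of sinusoidal endothelium (11 measured, median -0.03), cholangiocytes (5, median 0.55), T and NK cells (8, median 0.02), B and plasma cells (6, median -0.29), neutrophils (4, median -0.46), pancreatic acini (9, median -0.76) and adipocytes (3, median -0.12). Their summed signals were low, at most 483 on any array apart from endothelium, and the groups overlapped in each.

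The D2 strain, tested in the same fit with its own wild-type and *Hfe*-/- livers (3 each), gave a second reading of the genes called in B6. As in B6, the wild-type mice were bought and the mutants bred in house, so that origin and genotype cannot be told apart there either. The 3 D2 *Hfe*-/- arrays were hybridized in 1 run with D2 wild-type replicate 3, and D2 wild-type replicates 1 and 2 in other runs. Of the 82 genes that rose in B6, 65 were also positive in D2, where their median was 0.26, and 21 also rose there. Of the 64 that fell, 50 were negative in D2, with a median of -0.21, and 11 also fell. Over all genes, 55.7% had the same sign in both strains. The genes that were called upward in both included *Gsta2* (1.82 in D2), *9130409I23Rik* (2.00), *Aox1* (1.20), *Gstm3* (1.03), *Gclc* (0.64), *Gclm* (0.58) and *Ugdh* (0.72), and those called downward included *Hfe* (-2.55), *Apoa4* (-0.83) and *Neat1* (-0.62). *Slc40a1* was at 0.37 in D2 and not called there (adjusted p = 0.174), and its difference between strains was not called either (-0.48, adjusted p = 0.365).

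The difference between the strains in the effect of *Hfe* loss was called for 60 probe sets (0.214% of those kept). The count varied with the model: 10 probe sets were called with the run as a block and none in limma with run and fluidics station as a block (1733 at an unadjusted p under 0.05), and 635 without D2 *Hfe*-/- replicate 1. Of the 146 genes called in B6, 7 were among the 60. *Akr1c19* rose in B6 (0.71) and fell in D2 (-0.95), a difference of -1.66 (adjusted p = 0.000616). In B6 it read 959.8, 1037 and 951 in wild-type and 1596, 1521 and 1704 in *Hfe*-/- livers. *Stard3nl*, *Fmn2* and *Ctse* fell in B6 and rose in D2, and the falls of *Zkscan1* and *Junb* and the rise of *Slc35g1* in B6 were not called in D2. *Akr1c19* and *Stard3nl* lie on the same chromosome as *Hfe*, 19.5 and 4.34 Mb from it. *Hamp* and *Hamp2*, not called in B6, fell in D2 (-1.58 and -1.43), and their difference between strains passed the test. Of these 9 genes *Akr1c19* alone stayed called with the run as a block (-1.93, adjusted p = 0.0277), and none did with run and station (lowest adjusted p = 0.131). In the duodenum of the B6 mice, fitted separately, *Hfe* was the only gene called in both tissues. Of the genes called in liver, 50 of the 82 that rose were positive and 35 of the 64 that fell were negative in duodenum, where over all genes 51% had the sign they had in liver.

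**Figure D5:**
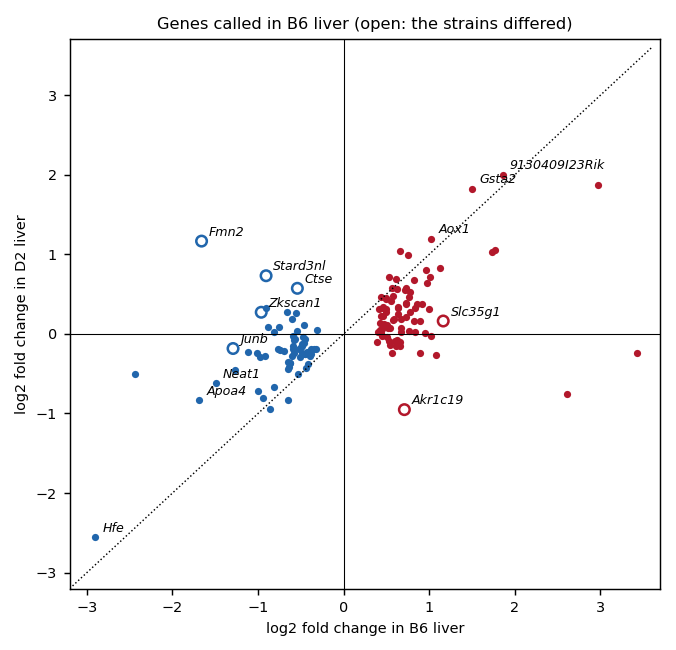
Log2 fold change of the 146 genes called in B6 liver (x axis) against their log2 fold change in D2 liver (y axis), with genes that rose in B6 in red and genes that fell in blue, a dotted line of equality and open circles for the 7 genes whose effect differed between strains. Of the risen genes 65 of 82, and of the fallen genes 50 of 64, lie in the quadrants of equal sign, and *Hfe*, *Gsta2* and *9130409I23Rik* lie close to the line.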

How the data were processed

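Liver RNA of single mice was labeled with biotin and hybridized to 1 array each. The authors computed MAS5 signals (version not given in the sources used here) and scaled the arrays. The deposited intensity of each of the 45101 probe sets is such a signal, not yet on a log scale. The deposited table holds no detection calls. The log2 of each signal was taken here, without a pseudocount, from the authors' linear values. After 64 control probe sets were left out, probe sets were ranked by their third-highest signal within liver or within duodenum, and as many of the brightest were kept as the study had retained, which put the limit at 20.06. Log2 values of the 12 liver arrays (3 each of wild-type and *Hfe*-/- B6 and D2) were fitted in R 4.3.3 with limma 3.58.1 (lmFit, eBayes with a mean-variance trend), and p-values were adjusted over all kept probe sets by the Benjamini-Hochberg method. The difference between strains was a contrast in the same fit, and the duodenum was fitted alone. With 3 arrays per group an exact two-sided permutation p cannot go below 0.1, so single genes were judged by the fit.

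Of the probe sets, 34958 were annotated with 1 gene symbol, 932 with several and 9211 with none, and only the first stood for a gene. For each gene the kept probe set that was brightest on average in liver (mean log2) stood for the gene. The text names the 15 largest rises and 15 largest falls among called genes whose brighter group averaged 100 or more, called members and low-p members of the gene lists, called genes within 20 Mb of *Hfe*, called genes that also differed between strains, and genes the study discusses. Any other gene was chosen after its values were seen. Lists and genes were chosen with earlier results of these data known. Hybridization runs came from the experiment files of the arrays. Alternatives covered the pseudocount, normalization, filters, thresholds, arrays fitted, the mean-variance trend, blocks, the gene summary and the removal of each array. The fit was tested on simulated data with independent normal noise for each probe set and array. That simulation held no effect of hybridization run or origin, so it cannot bear on either. Figures were drawn with matplotlib 3.10.9.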

Additional observations from a re-analysis of the deposited data

Results flagged for a closer look

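For 9 genes named in the text the effect of *Hfe* loss differed between the B6 and D2 livers, by the interaction term of the limma fit over 12 arrays (the D2 log2 fold change minus that of B6, Benjamini-Hochberg adjusted p at most 0.1). *Akr1c19*, an aldo-keto reductase, rose in B6 (0.71) and fell in D2 (-0.95), a difference of -1.66. *Fmn2*, from low signals, fell in B6 (-1.66) and rose in D2 (1.17), a difference of 2.83. *Stard3nl* went the same ways (-0.91 and 0.73), a difference of 1.64, as did *Ctse*, the protease cathepsin E (-0.54 and 0.57), a difference of 1.11, although the mean of both *Ctse* probe sets was 0.03 in B6. *Zkscan1* fell in B6 (-0.96) and was at 0.27 in D2, a difference of 1.23. *Junb* fell in B6 (-1.29) and was at -0.18 in D2, a difference of 1.11. *Slc35g1* rose in B6 (1.16) and was at 0.16 in D2, a difference of -1.0. The hepcidin genes *Hamp* and *Hamp2* were uncalled in B6 (-0.05 and 0.49) and fell in D2 (-1.58 and -1.43), differences of -1.53 and -1.92. The adjusted p of the 9 differences lay between 0.000616 and 0.0973. With the hybridization run as a block only *Akr1c19* of the 9 stayed called (adjusted p = 0.0277, the others from 0.293 to 0.617), and with run and fluidics station as a block none did (0.131 to 0.55), although each difference kept its sign.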

How the results depend on the processing

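The main comparison called 284 probe sets. Other counts were 466 with a third-highest signal of at least 100, 123 at an adjusted p of at most 0.05, 188 with a change of at least 1.5-fold as well, 170 from the 6 B6 arrays alone, 26 without the mean-variance trend, 99 with the hybridization run as a block and 108 with run and fluidics station as a block. Leaving out 1 array at a time gave 56 (wild-type replicate 2) to 411 (D2 *Hfe*-/- replicate 1). The strain difference, 60 in the main fit, came to 149 with the higher signal filter, 32 at 0.05, 5 without the trend, 10 with the run block, and 0 in limma with the run and station block (1733 at an unadjusted p under 0.05). It ranged from 26 (without D2 wild-type replicate 1 or 2) to 635 (without D2 *Hfe*-/- replicate 1). The pseudocount, quantile normalization and no filter left both counts within 1.5 times. With the mean of all probe sets per gene the sign changed for *Neat1* (0.063), *Ptch1* (0.18), *Ctse* (0.027) and *Klhdc10* (-0.020). The cause of these changes was not tested.

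Replicate numbers did not pair the B6 livers: residuals of same-numbered arrays correlated at -0.016, 0.006 and -0.008. With the replicate block 209 probe sets were called in B6, and 81 for the strain difference.

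Fold changes of probe sets near background are poorly determined. Of the 44 called probe sets that carry no single gene symbol, only those mentioned above were described.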
